A study of Mus musculus with 12 samples.

Results

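Genes of the liver's surface mesothelium were followed in whole livers of mouse fetuses, wild type against double knockout for macroH2A1 and macroH2A2. The members are Pkhd1l1, Gpm6a, Alcam, Wt1, Msln, Upk3b, Upk1b and Muc16, taken as the probe sets that the platform's gene table pairs with those symbols. All 8 genes were found, each with 1 probe set that names no other gene, among 28815 probe sets and 19935 genes. The series holds 12 arrays, 6 per genotype, from male fetuses of strain 129/S6 (taconic) at 18.5 days post coitum. Embryos of both genotypes were mixed and carried to that age by wild-type recipient females, so the transfer is common to both groups. The labels number the replicates and do not say which fetuses shared a recipient, so p-values measure the spread between these 12 samples.

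The mesothelium is the single sheet of flattened epithelium that covers the liver and lines the body cavities. It forms from the mesoderm around the liver bud, and in the fetus some of its cells move inward and become stellate cells and fibroblasts. It covers the surface and makes up a small share of a whole liver. MacroH2A proteins are histone variants with a large extra domain, found in compacted chromatin and known for keeping genes silent. Whole-liver RNA was measured, so the number of mesothelial cells, the RNA per cell and RNA from other cells cannot be told apart in any value here.

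None of the 8 genes passed the test between genotypes. In limma's test with Benjamini-Hochberg adjustment over all genes, 0 of 8 passed, beside 0.015% of all 19935 genes, or 3 genes, all of them lower in the double knockout. At an unadjusted limma p under 0.05 there was 1 of the 8, Pkhd1l1, higher in the double knockout, where 3.93% of all genes lay under that value and 2.64% did so with a higher double-knockout mean. The double-knockout mean was higher for 6 of the 8 genes, as it was for 59.0% of all genes. The median difference over the 8, double knockout minus wild type, was 0.036 on the log2 scale, against 0.013 over all genes. No gene of the 8 separated the genotypes completely, which 0.211% of all genes did. Over the 95% intervals of the 8, the highest upper bound was a 1.29-fold higher level in the double knockout, for Pkhd1l1, and the lowest lower bound a 1.15-fold lower level, for Upk3b.

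On the arrays the 8 genes did not move as 1 block. Msln and Upk1b varied together from array to array, and no other pair passed the test, as given after the single genes. RefSeq's table (build GRCm38.p6) gives the start region of 4 of the 8, Upk3b, Gpm6a, Alcam and Muc16. The 250 bases before the start are shown for Upk3b and Gpm6a, whose deviations ranked the arrays alike (rho = 0.85). That likeness did not pass after adjustment, and r was 0.10 within wild type. By Pearson r, Gpm6a was nearer to Muc16 (0.76) than to Upk3b (0.72). The Alcam window is shown beside those of Upk3b and Gpm6a as the third gene above the level of silent genes that has one. Each is written 5′ to 3′ on the strand of its gene. Capitals mark the core that TEAD factors bind, GGAATG, on either strand of the window. The Upk3b window is chr5:136038246-136038495 on the plus strand, the Gpm6a window of the first of its 2 listed starts is chr8:54779184-54779433 on the plus strand, and the Alcam window is chr16:52453082-52453331 on the minus strand.
Upk3b: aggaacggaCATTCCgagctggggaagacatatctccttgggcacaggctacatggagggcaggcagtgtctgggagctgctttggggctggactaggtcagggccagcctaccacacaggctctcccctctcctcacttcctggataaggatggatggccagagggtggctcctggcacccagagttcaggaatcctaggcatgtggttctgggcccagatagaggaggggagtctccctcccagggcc
Gpm6a: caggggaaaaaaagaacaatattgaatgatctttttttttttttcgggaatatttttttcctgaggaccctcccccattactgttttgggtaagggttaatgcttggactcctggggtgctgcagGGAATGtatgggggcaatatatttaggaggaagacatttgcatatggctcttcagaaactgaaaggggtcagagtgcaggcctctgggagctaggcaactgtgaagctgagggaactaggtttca
Alcam: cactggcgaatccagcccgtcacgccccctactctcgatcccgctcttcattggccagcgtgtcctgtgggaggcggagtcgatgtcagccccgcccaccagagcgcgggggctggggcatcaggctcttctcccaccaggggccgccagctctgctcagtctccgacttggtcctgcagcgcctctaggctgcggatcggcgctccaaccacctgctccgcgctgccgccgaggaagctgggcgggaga

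The Upk3b and Gpm6a windows each hold 1 match to the TEAD core, 241 and 125 bases before the start, and the Alcam window holds none. Of the 32851 windows of this length in the table, 12.6% hold such a match on either strand. A core shared by WT1 and EGR factors, GCGTGGG, was also searched on both strands and stands in 4.30% of all windows. For GATA factors only the form AGATAA was searched, likewise on both strands, and it stands in 9.99%. Other forms were not searched, and AGATAG stands in the Upk3b window. Neither GCGTGGG nor AGATAA was found in the windows of the 4 genes, and the Muc16 window and the second Gpm6a window hold no TEAD core. The Alcam window is GC-rich at 69.2%, the Upk3b window has 60.8% and the Gpm6a window 44.4%, where the median of all windows is 52.4%. A match is a description of the letters and was not tested for binding.

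Msln encodes mesothelin, an anchored surface protein by which mesothelial cells are recognised. It measured 8.01 at the lowest, 8.14 at the median and 8.21 at the highest wild-type array, and 8.01, 8.07 and 8.34 in the double knockout (log2 values). Double-knockout replicates 1 and 2, at 8.34 and 8.29, lay above every wild-type array, and replicates 3, 5 and 6 lay within 8.01 to 8.02, close to the lowest wild-type array. The means were 8.12 ± 0.08 and 8.13 ± 0.15 (SD, n = 6 each), a log2 difference of 0.0099 with a 95% interval from -0.13 to 0.15 (limma adjusted p = 0.996, exact permutation p = 0.91).

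Muc16 encodes the large membrane mucin that binds mesothelin. Its probe set measured 6.12, 6.28 and 6.38 at the lowest, median and highest wild-type array and 6.12, 6.27 and 6.49 in the double knockout. The ranges overlap on all but 1 double-knockout array, replicate 1. The log2 difference was 0.011, interval -0.13 to 0.15 (limma adjusted p = 0.996, exact permutation p = 0.86). These values lie within the range of genes that liver normally keeps silent: 95% of 1193 olfactory and vomeronasal receptor genes had means under 6.91. Probe sets respond differently, so that level is a guide only, and the other 7 genes had means above it.

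Upk3b and Upk1b encode uroplakins, membrane proteins best known from the bladder lining. Upk3b measured 9.12, 9.15 and 9.23 at the lowest, median and highest wild-type array and 8.88, 9.10 and 9.29 in the double knockout. The double-knockout arrays reached past the wild type on both sides, with 2 above every wild-type array and 3 below. The means were 9.17 ± 0.05 and 9.10 ± 0.16 (SD, n = 6 each), so the double-knockout SD was 3.34 times that of the wild type, and the log2 difference was -0.07 with an interval from -0.21 to 0.07 (limma adjusted p = 0.99, exact permutation p = 0.34). Upk1b measured 7.60, 7.72 and 7.92 in wild type and 7.60, 7.71 and 8.07 in the double knockout. Its medians nearly coincided, while double-knockout replicates 1 and 2 lay above every wild-type array. The log2 difference was 0.06, interval -0.11 to 0.24 (limma adjusted p = 0.99, exact permutation p = 0.51). The double-knockout SD was larger for 7 of the 8 genes, as it was for 55.9% of all genes, with Alcam the exception. The difference in spread was not tested.

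Gpm6a encodes a proteolipid-like membrane glycoprotein of neurons that mesothelial cells also carry. It measured 7.94, 8.05 and 8.11 at the lowest, median and highest wild-type array and 7.95, 8.16 and 8.34 in the double knockout. Double-knockout replicates 1, 2 and 4 lay above every wild-type array and replicate 3 at the bottom of the wild-type range. The means were 8.03 ± 0.08 and 8.15 ± 0.15 (SD, n = 6 each), a log2 difference of 0.12 with an interval from -0.017 to 0.26 (limma adjusted p = 0.99, exact permutation p = 0.11). Fitted with the interquartile range of each array as a covariate, the difference was 0.15 with a limma adjusted p of 0.91.

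Pkhd1l1 encodes a very large membrane protein related to fibrocystin, and it had the largest difference of the 8. It measured 9.68, 9.90 and 10.06 at the lowest, median and highest wild-type array and 9.94, 10.08 and 10.32 in the double knockout. All 6 double-knockout arrays lay above the wild-type mean, and 3 of them, replicates 3, 4 and 5, lay above every wild-type array. The means were 9.90 ± 0.13 and 10.11 ± 0.14 (SD, n = 6 each), which differed by 0.21 (SE 0.07, log2), or 1.16-fold, and the 95% interval of that fold was 1.04 to 1.29. After adjustment over all genes limma gave p = 0.99 (0.012 before it), and the 2-sided exact permutation p over the 924 splits was 0.022, where the smallest possible is 0.0022. Wild-type replicate 6 was the lowest array at 9.68, and without it the difference was 0.16 (limma adjusted p = 0.80).

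Alcam encodes an adhesion molecule of the immunoglobulin superfamily that mesothelial cells share with hepatoblasts and bile duct cells. It measured 10.35, 10.46 and 10.58 at the lowest, median and highest wild-type array and 10.41, 10.54 and 10.64 in the double knockout. The means were 10.46 ± 0.10 and 10.54 ± 0.08 (SD, n = 6 each), a log2 difference of 0.07 with an interval from -0.040 to 0.19 (limma adjusted p = 0.99, exact permutation p = 0.19). The groups overlap, with double-knockout replicates 3, 4 and 5 above every wild-type array by small margins.

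Wt1 encodes the zinc-finger transcription factor that marks mesothelium across the body cavities. It measured 7.68, 7.79 and 7.87 at the lowest, median and highest wild-type array and 7.68, 7.74 and 7.90 in the double knockout. The log2 difference was -0.020 with an interval from -0.13 to 0.09 (limma adjusted p = 0.99, exact permutation p = 0.67). Of the 8 genes, Wt1 had nearly the same range in both genotypes and the narrowest interval.

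**Figure D1:**
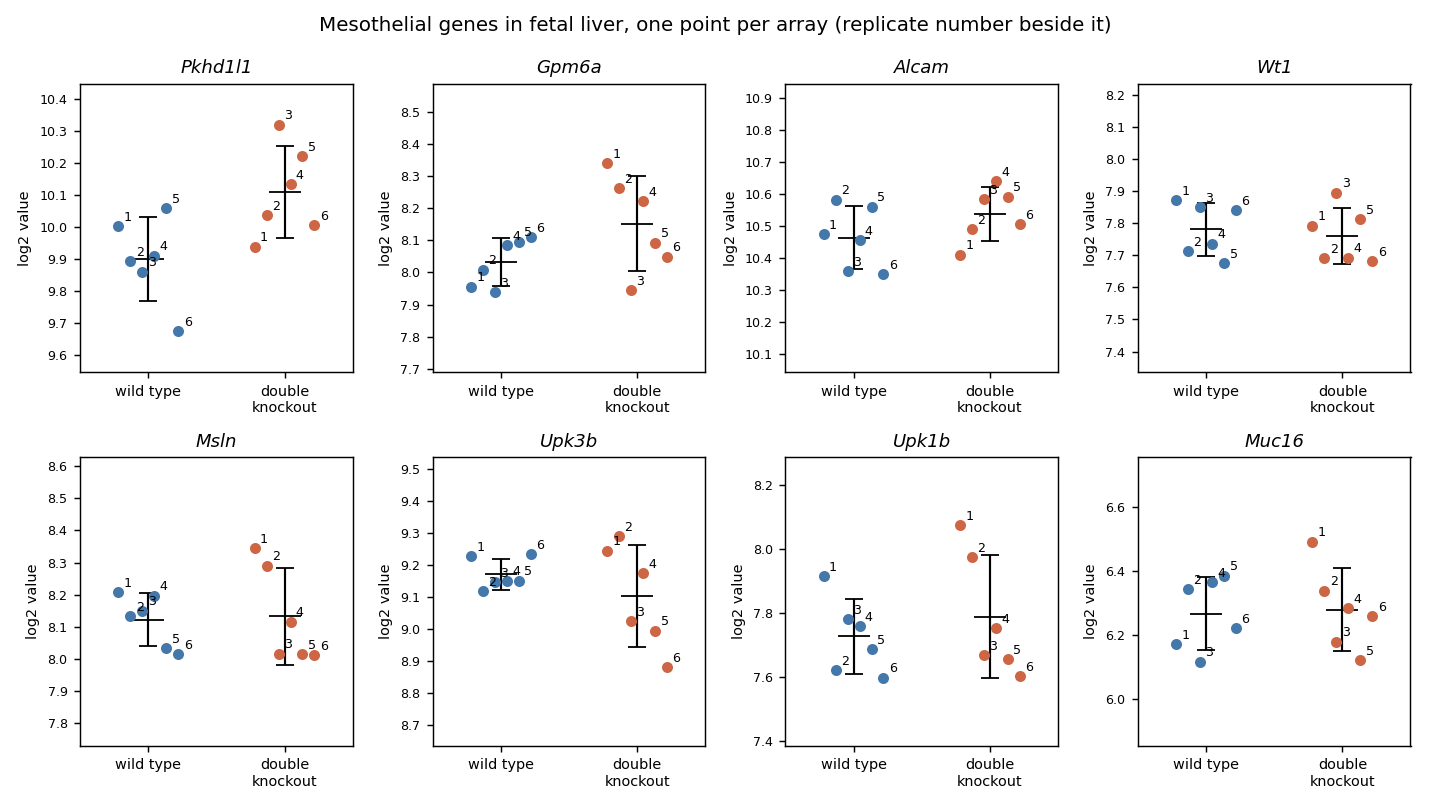
Log2 value of each of the 8 mesothelial genes on every array (points, with the replicate number), wild type in blue and double knockout in orange; the bar is the mean with 1 SD (n = 6), and every panel spans the same height. The genotypes overlap in all 8 panels; the double-knockout points of Upk3b, from 8.88 to 9.29, extend past the wild-type points on both sides.

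Other genes of the mesothelium, from a list that does not hold the 8, were read in the same fit. Of 14 genes, 0 passed after adjustment in either direction, 11 had higher double-knockout means, and the median log2 difference was 0.027. The 3 of smallest p were Nkain4, Pdpn and Bnc1. Nkain4, which encodes a small membrane protein that interacts with the sodium pump, measured 7.44, 7.51 and 7.58 at the lowest, median and highest wild-type array and 7.56, 7.64 and 7.71 in the double knockout. The double-knockout arrays were higher with 1 array inside the wild-type range: 5 of 6 lay above every wild-type array, and the log2 difference was 0.13, interval 0.05 to 0.22 (limma adjusted p = 0.99, exact permutation p = 0.0043). Pdpn, the mucin-like podoplanin, differed by -0.08. Bnc1, the transcription factor basonuclin, differed by 0.06, with a mean of 6.82 that lies under the level of silent genes.

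**Figure D2:**
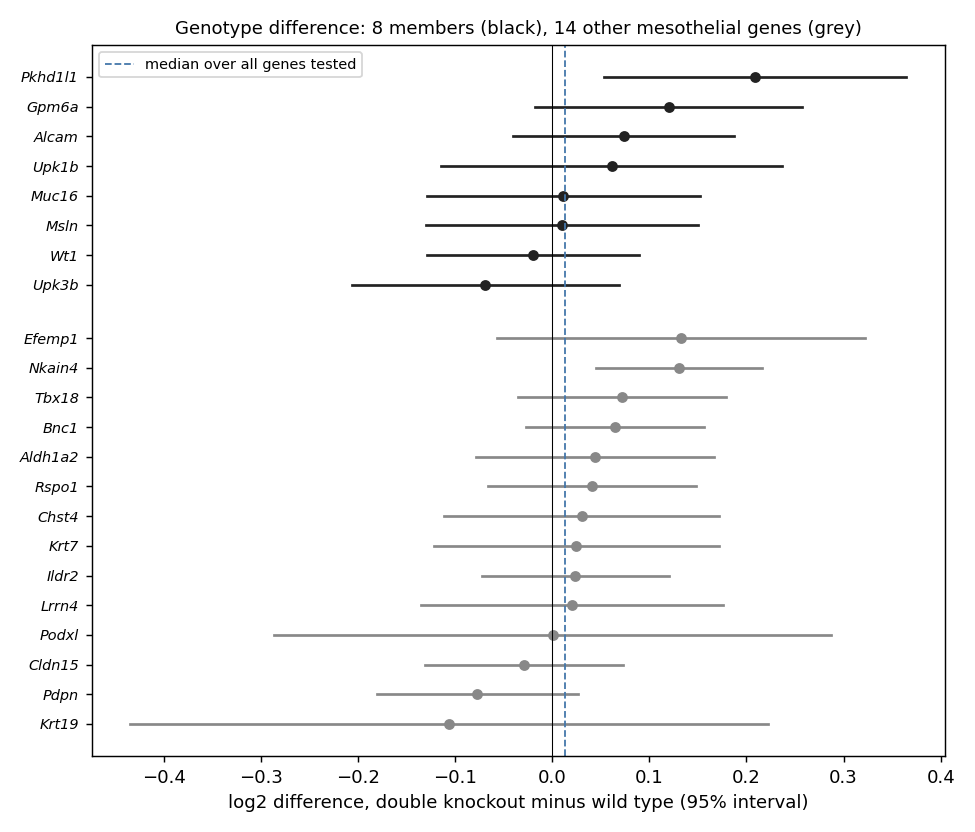
Log2 difference, double knockout minus wild type, with its 95% interval, for the 8 genes (black) and 14 other mesothelial genes (grey); the dashed line is the median over all genes, 0.013. Only the intervals of Pkhd1l1 and Nkain4 lie wholly on 1 side of 0, and neither gene passed after adjustment over all genes.

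Relatives and binding partners of the 8 were also listed. Of 11 measured, 7 had higher means, 0 passed, and the median log2 difference was 0.037. The 3 of smallest p were Gpm6b, Upk3a and Upk2. Gpm6b, the closest relative of Gpm6a, had a wild-type mean of 7.96 ± 0.06 and a double-knockout mean of 8.09 ± 0.08 (SD, n = 6 each), with 4 of 6 double-knockout arrays above every wild-type array. Its log2 difference was 0.14, interval 0.04 to 0.23 (limma adjusted p = 0.99, exact permutation p = 0.0065). Upk3a and Upk2, further uroplakins, differed by 0.05 and 0.06. Of 10 measured genes that have been reported as targets of the WT1 protein, 7 had higher means, 0 passed, and the median was 0.023. Amhr2, the receptor for anti-Müllerian hormone, differed by 0.18, interval 0.06 to 0.30 (limma adjusted p = 0.99, exact permutation p = 0.015), with a mean of 6.05 over the arrays, under the level of 6.91 named above. Nphs1, the podocyte protein nephrin, differed by 0.13 (limma adjusted p = 0.99, exact permutation p = 0.032) and Bcl2, which blocks cell death, by 0.06.

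How the 8 genes varied among fetuses was examined on the deviation of each array from its genotype mean, which leaves the genotype difference out. Of the 28 pairs of genes, 14 correlated positively and 14 negatively over the 12 arrays, from -0.60 to 0.93. Of these, 1 pair passed a permutation test (100000 resamples within genotypes, 2-sided) after Benjamini-Hochberg adjustment over the 28. That pair was Msln and Upk1b, with Pearson r = 0.93 (permutation p = 0.00033, adjusted 0.0092) and Spearman rho = 0.96 (permutation p = 2e-05, adjusted 0.00056). Within wild type r was 0.75 and within the double knockout 0.99. The resampling takes the arrays of a genotype as exchangeable. No permutation p of a correlation given here allows for a factor shared by same-numbered arrays, of which the closing section gives a hint. With a replicate block the SE of the genotype difference was 0.050 for Msln and 0.061 for Upk1b, against 0.066 and 0.082 without it. For this pair, r was also taken without some arrays. It was 0.85 without the 2 arrays farthest from the median of Msln, double-knockout replicates 1 and 2, with both genotype means kept, and 0.78 with the means taken again without them.

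The other positive pairs of largest r did not pass after adjustment. Upk3b and Upk1b had r = 0.77 (rho = 0.71, permutation p = 0.011, adjusted 0.080), Gpm6a and Muc16 had r = 0.76 (rho = 0.64, permutation p = 0.0074, adjusted 0.080), and Pkhd1l1 and Alcam had r = 0.73 (rho = 0.73, permutation p = 0.011, adjusted 0.080). Without the 2 arrays farthest from the median of the first gene these were 0.69, 0.64 and 0.70. Without double-knockout replicates 1 and 2, with the means taken again, they were 0.45, 0.55 and 0.63. Upk3b with Upk1b had 0.26 within wild type and 0.90 within the double knockout. Pkhd1l1 with Alcam had 0.70 within wild type and 0.78 within the double knockout. Msln and Upk3b had r = 0.73 (rho = 0.73, permutation p = 0.035, adjusted 0.20), but -0.15 within wild type against 0.89 within the double knockout. Gpm6a and Upk3b, whose start regions are printed above, had r = 0.72 (rho = 0.85, permutation p = 0.052, adjusted 0.21), with 0.10 within wild type and 0.83 within the double knockout. Without double-knockout replicates 1 and 2 that pair had r = 0.45 and Msln with Upk3b 0.28, so both rest in part on these arrays. The correlations that differ between genotypes were not tested for that difference.

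No pair of Wt1 with a surface protein passed. Its correlations ran from -0.60 with Muc16 (rho = -0.63, permutation p = 0.052, adjusted 0.21) to 0.14 with Pkhd1l1. Those with Msln, Upk3b and Upk1b were -0.07, 0.018 and 0.10, and 0.32, 0.34 and 0.54 with the interquartile range of the arrays regressed out. The lowest r between Pkhd1l1 and another of the 8 was -0.55, with Gpm6a (rho = -0.45, permutation p = 0.089, adjusted 0.31). Alcam had negative r with all but Pkhd1l1, but without double-knockout replicates 1 and 2 its r was positive with Gpm6a (0.22), Msln (0.18), Upk3b (0.13), Upk1b (0.06) and Muc16 (0.58) and stayed negative with Wt1. Likewise Pkhd1l1 then had r = 0.20 with Msln, 0.07 with Upk3b, 0.45 with Upk1b and 0.06 with Muc16, each negative over the 12 arrays. These directions thus rest in part on those arrays. Within wild type, Pkhd1l1 and Alcam had r = -0.32 and -0.51 with Upk3b. They had 0.34 and 0.06 with Msln, 0.53 and -0.10 with Upk1b, and 0.35 and 0.72 with Muc16. After quantile normalization of all 12 arrays these pairs stayed negative, with Msln at -0.54 and -0.65.

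**Figure D3:**
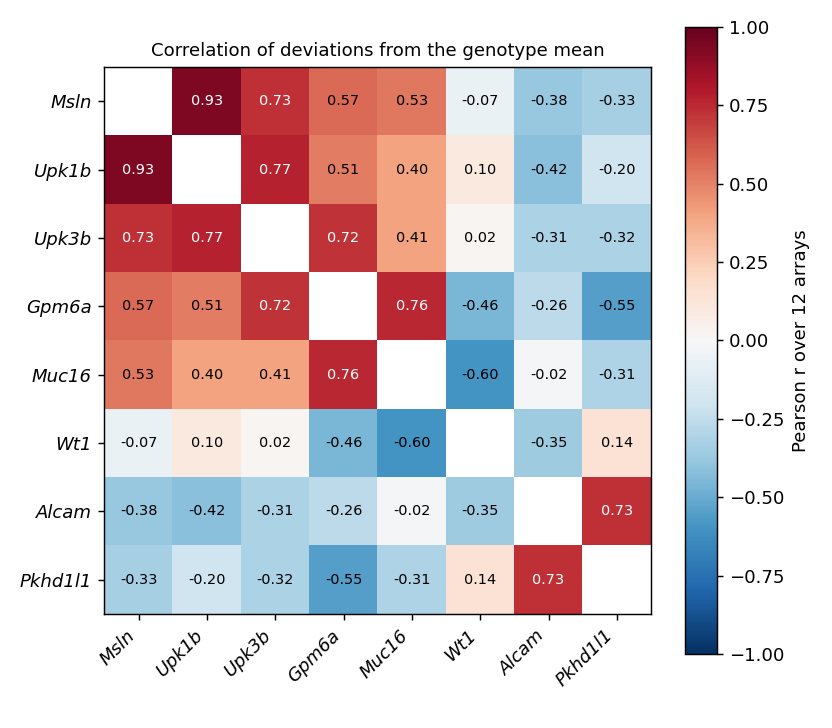
Pearson correlation of the 28 pairs of mesothelial genes over 12 arrays, each value taken as its deviation from the genotype mean; red is positive and blue negative. Msln and Upk1b, at 0.93, are the 1 pair that passed the permutation test after adjustment, and the pairs among Msln, Upk1b, Upk3b, Gpm6a and Muc16 are all positive here. Without double-knockout replicates 1 and 2, 5 of those pairs were negative, from -0.04 for Msln with Muc16 to -0.32 for Upk1b with Muc16.

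The spread of values over the whole array moved with part of this pattern. The interquartile range over all probe sets was 2.92 to 3.02 on wild-type replicates 1 to 5 and 2.81 on replicate 6. It was at least 2.99 on double-knockout replicates 1, 2 and 4, and 2.89, 2.77 and 2.81 on replicates 3, 5 and 6. Over the 12 arrays its deviation correlated with that of Msln at r = 0.70 (rho = 0.73, permutation p = 0.028), Upk1b at 0.68 (rho = 0.74, permutation p = 0.031) and Muc16 at 0.66 (rho = 0.70, permutation p = 0.028), each with an adjusted p of 0.17 over 88 relations of the 8 genes to array properties. Without the 2 arrays farthest from the median of each gene these were 0.61, 0.68 and 0.52. Pkhd1l1 and Alcam had r = 0.17 and 0.21 over the 12 arrays, but these join opposite signs. Pkhd1l1 had 0.93 within wild type and -0.39 within the double knockout, and Alcam 0.74 and -0.28. That difference between genotypes was not tested. With the interquartile range regressed out, Msln and Upk1b had r = 0.87, and after quantile normalization of the arrays 0.93. Other pairs moved more when it was regressed out: Msln with Muc16 went from 0.53 to 0.12, Upk3b with Muc16 from 0.41 to 0.015, Upk1b with Muc16 from 0.40 to -0.08 and Alcam with Upk1b from -0.42 to -0.78.

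**Figure D4:**
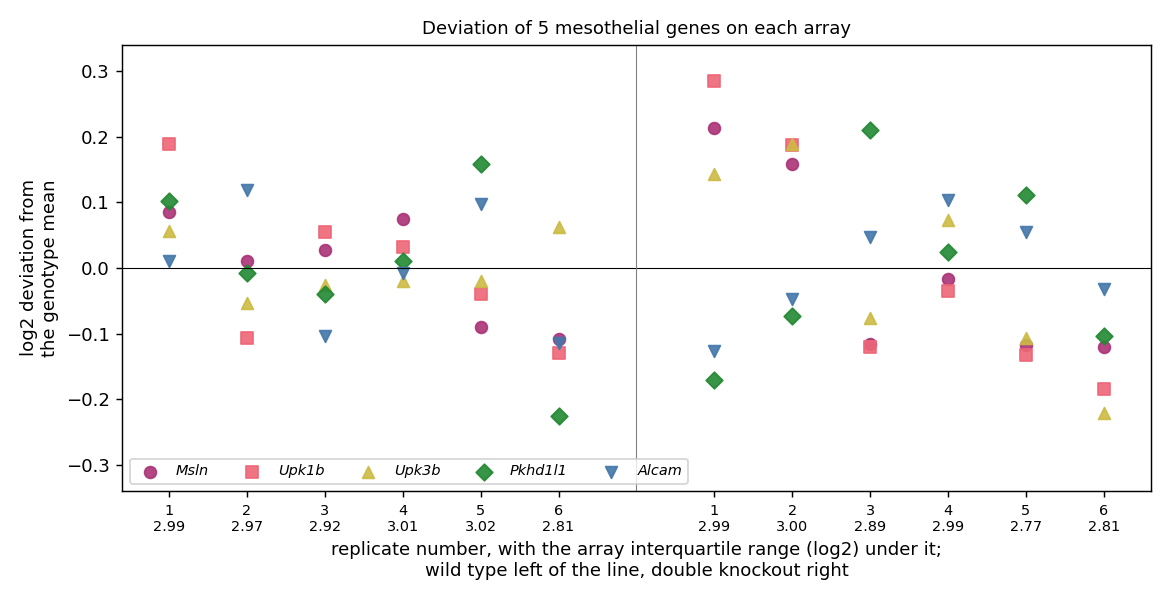
Log2 deviation of Msln, Upk1b, Upk3b, Pkhd1l1 and Alcam from their genotype mean on each array, with the array's interquartile range under its replicate number. Msln, Upk1b and Upk3b are above 0 and Pkhd1l1 and Alcam below 0 on double-knockout replicates 1 and 2, and the signs turn on replicates 3 and 5.

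Other mesothelial genes and markers of neighbouring cell types were set beside the 8 in the same way. The mean of the 14 other mesothelial genes lay between 7.35 and 7.47 in wild type and 7.34 and 7.54 in the double knockout. Upk3b followed that mean with r = 0.90 (rho = 0.89, permutation p = 0.0015, adjusted 0.033 over 88), with 0.68 within wild type, 0.95 within the double knockout and 0.86 without the 2 arrays farthest from the median of Upk3b. Its highest single correlation in that list was 0.85 with Lrrn4, a leucine-rich repeat protein of mesothelium, named after its values were seen. The likeness was not particular to that list. Upk3b had r = 0.78 with the stellate cell marker mean (permutation p = 0.058, adjusted 0.22), but -0.11 within wild type. With smooth muscle and fibroblast markers it had 0.67 (permutation p = 0.026, adjusted 0.17). With bile duct and hepatoblast markers it had 0.60 (permutation p = 0.0065, adjusted 0.071). Msln had 0.75 with the stellate mean (permutation p = 0.026, adjusted 0.17). With the mean of podocyte, adrenal and gonad markers, which shares Podxl with the mesothelial list, Upk3b had r = 0.87 (permutation p = 0.0056, adjusted 0.071). Cyp17a1, named after its values were seen, spread most in that list, from 7.59 to 9.55 in the double knockout. Its SD there was 0.82, and Podxl came next at 0.31. How much of the r with this mean comes from Cyp17a1 was not tested. Msln and Upk1b had 0.85 and 0.83 there (each adjusted 0.071). With the mesothelial mean Msln and Upk1b had 0.67 and 0.63, and -0.23 and -0.22 within wild type. Gpm6a had 0.73 with that mean, Muc16 0.42 and Wt1 -0.06. Pkhd1l1 and Alcam ran against it, with r = -0.61 and -0.54 (permutation p = 0.055 and 0.068, adjusted 0.22 each). Within wild type these were -0.82 and -0.76, and within the double knockout -0.54 and -0.48. The median r with the 14 genes was 0.43 for Upk3b, 0.24 for Gpm6a, 0.20 for Msln and 0.17 for Upk1b. It was 0.07 for Muc16, 0.028 for Wt1, -0.21 for Alcam and -0.22 for Pkhd1l1. Against all other genes, the median r of these 8 lay between -0.05 and 0.17, the latter for Upk1b.

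Among the 88 relations 3 more passed. Gpm6a followed the mean of 9 smooth muscle and fibroblast markers of capsule and neighbouring tissue with r = 0.85 (rho = 0.92, permutation p = 0.00077, adjusted 0.033). It followed the mean of 7 bile duct and hepatoblast markers with r = 0.73 (rho = 0.84, permutation p = 0.0011, adjusted 0.033). Without the 2 arrays farthest from the median of Gpm6a these were 0.84 and 0.73. The bile duct list shares Krt7 and Krt19 with the list of other mesothelial genes, where Krt19 had the highest r with Gpm6a, 0.82. Pkhd1l1 ran against the mean of 7 hepatocyte markers with r = -0.86 (rho = -0.81, permutation p = 0.001, adjusted 0.033), at -0.93 within wild type and -0.81 within the double knockout, and -0.79 without its 2 farthest arrays. The hepatocyte mean itself moved little, between 13.54 and 13.69, and lay near the top of the scale, where the highest value was 14.45. Alcam had r = -0.70 with the same mean (rho = -0.63, permutation p = 0.013, adjusted 0.11).

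In these cell-type lists 0 genes passed between genotypes. The mean of 10 stellate cell markers, the cells that mesothelium can give rise to, had a wild-type value of 8.75 ± 0.04 and a double-knockout value of 8.77 ± 0.13 (SD, n = 6 each), with Ngfr differing by -0.04 and Hand2 by 0.05. Hepatocyte markers defined every array as liver, with Alb between 14.07 and 14.29, and Hnf4a and Cps1 differed by -0.07 and -0.06. Of the bile duct and hepatoblast markers Cldn4 differed by 0.12 and Cftr by 0.10, and of the smooth muscle and fibroblast markers Lum by 0.21 and Dcn by 0.08. The mean of 7 podocyte, adrenal and gonad markers ranged from 8.02 to 8.19 and from 7.95 to 8.35, with Nr5a1 at 0.07 and Nphs1 as above. Tissue beside the liver differed more: the mean of 8 exocrine pancreas markers ran from 7.18 to 10.38 in wild type and from 7.24 to 10.36 in the double knockout (Cel 1.12, Cela3b 0.59), and that of 10 intestine and stomach markers reached 8.20 on wild-type replicate 6 and 7.10 to 7.38 elsewhere (Fabp2 -0.82 and Apoa4 -0.71, or -0.37 and -0.24 without that array). Both organs carry a mesothelial cover. None of the 8 genes passed in its relation to either mean among the 88. Upk3b with the intestine and stomach mean had r = 0.30 (permutation p = 0.0091, adjusted 0.089), with 0.67 within wild type and 0.73 within the double knockout. With the pancreas mean Wt1 had r = -0.62 (permutation p = 0.041, adjusted 0.20) and Gpm6a 0.49 (0.96 within wild type, 0.28 within the double knockout). With that mean as covariate the Gpm6a difference was 0.089, against 0.12 without it. How much such tissue added to the values was not tested. Without wild-type replicate 6 the log2 differences were 0.14 for Gpm6a, -0.06 for Upk3b, 0.05 for Alcam, 0.035 for Upk1b, -0.012 for Msln, -0.0081 for Wt1 and 0.0020 for Muc16.

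Of the targeted genes, Macroh2a1 was 10.14 to 10.52 on wild-type arrays and 9.52 to 9.67 on double-knockout arrays, with no overlap (limma adjusted p = 3.5e-05), and Macroh2a2 9.09 to 9.52 and 8.71 to 9.58 (limma adjusted p = 0.99). The position of these probes relative to the deletions was not known, so neither value settles the labels.

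For each of the 7 genes above the level of silent genes, the 3 genes of all 19935 that varied most like it were read out, by Pearson r of deviations over the 12 arrays. These were picked from the whole table and get no test. For Msln they were Apol7a (0.96), Vtn (0.95) and Grb14 (0.95), and Upk1b ranked 11 of 19934 genes. Those for Upk1b were B4galt4 (0.97), Arfgap2 (0.94) and Ethe1 (0.94), and Msln ranked 5; B4galt4 has a mean under the level of silent genes. For Upk3b they were Arhgap26 (0.98), Thbs2 (0.96) and Pcolce (0.94). They were picked by r alone, and no cell type was read from them or from those of the other genes. Those for Gpm6a were Amy1 (0.97), Chn2 (0.94) and Fstl1 (0.94). For Pkhd1l1 they were Setdb1 (0.97), Bex3 (0.97) and Rbm38 (0.96), and Alcam ranked 1022. For Alcam they were Tasp1 (0.96), Sec61a1 (0.94) and Slc36a2 (0.93), and Pkhd1l1 ranked 340. For Wt1 they were Synpr (0.93), Mos (0.92) and Ephx3 (0.91), all 3 with means under the level of silent genes. After quantile normalization these 3 had r = 0.79, 0.76 and 0.68, where the lowest among the other genes named here was 0.85, for Chn2 with Gpm6a.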

How the data were processed

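The values deposited by the authors are log2 levels of probe sets from Affymetrix Expression Console, per the submitters' processing notes. Not given in the sources used here are its version, summarisation and background correction, and the build. Per the labels' protocols, 250 ng of Trizol-extracted total RNA was labelled for each array. The log base was read from the values, 3.73 to 14.45. The number of arrays limits the precision, with a median standard error of 0.057.

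Probe sets naming 1 gene (21780; 1605 name several, 5430 are unlisted) were used, symbols updated by gene ID for 21689, and the probe set of highest mean taken for 998 genes with several. Genotypes were compared by limma 3.58.1 under R 4.3.3 (lmFit, then eBayes), with p-values adjusted over all 19935 genes, with a threshold of 0.05; single genes also had an exact permutation test. The code was tested on simulated data with 200 changed genes. The members and lists were chosen with earlier results of these data known. Named are the 8 genes, the 3 or 2 of smallest p in each list, and the 3 genes most like each of the 7 above the level of silent genes; others are said to be chosen later. Of 111 list entries, 101 were measured. The fit was repeated with quantile normalization, without dim genes, with a robust prior, array weights, a replicate block, other choices of probe set and either of 2 covariates, and without each array. Alternatives on correlations were chosen after seeing the data.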

Additional observations from a re-analysis of the deposited data

How the results depend on the processing

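Over 165 refits of the 8 genes, 0 passed the limma threshold; the lowest adjusted p was 0.80. The filter on dim genes left out Wt1, Upk1b and Muc16. All of the refits of Pkhd1l1, Gpm6a, Alcam, Upk3b and Upk1b kept the sign of the difference, with Pkhd1l1 between 0.16 and 0.24 without any 1 array. Upk1b ran from 0.0042 (without double-knockout replicate 1) to 0.10, and Upk3b from -0.11 to -0.025 (without replicate 6). Sign changes occurred in 11 refits, of genes whose difference was near 0: Wt1 (0.0079 with the pancreas covariate), Muc16 (-0.016 after quantile normalization, -0.0050 with the pancreas covariate, -0.031 to 0.043 without 1 array) and Msln (-0.033 to 0.034 without 1 array). The median over the 8 genes ran from -0.011 to 0.057 without 1 array. The number of genes past the threshold was 2 to 6 without 1 array, 6 without double-knockout replicate 2, and the cause was not tested. Same-numbered arrays of the 2 genotypes had correlations of deviations from -0.18 to 0.49, and 4 of 6 wild-type arrays correlated best with their own number, a hint of a shared factor from the data. The labels name none and replicate 2 had a negative correlation, so the comparison was left unpaired. With the replicate block 2 genes and 0 of the 8 passed, and Pkhd1l1 had a limma adjusted p of 0.91. Scanner signals were not used, so a low value cannot be told from background, which bears most on Muc16.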
